A study of Mus musculus with 19 samples.

Results

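Immunoglobulin gene segments are the V, D, J and C genes from which antibody heavy chains and kappa and lambda light chains are assembled. The segments described are the genes of the RNA-seq table whose Ensembl ID carries an immunoglobulin V, D, J or C gene type in GENCODE vM21, which gave 264 of the 46078 genes. They comprise 218 V segments (113 heavy, 3 lambda and the rest kappa), 19 D segments, 14 J segments and 13 constant genes. Another 165 immunoglobulin annotations, pseudogenes and 4 genes of a separate V-like type, and 225 T cell receptor segments were not counted among them.

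Antibodies pair a heavy chain with a light chain. During B cell development a V, a J and, in the heavy chain, a D segment are joined, and the joined exon is spliced to a constant gene. The heavy constant gene sets the isotype: naive B cells carry IgM and IgD, class switching replaces them with IgG, IgE or IgA, and plasma cells secrete the product. The mammary gland is known for IgA plasma cells, whose antibody the polymeric immunoglobulin receptor carries across the epithelium into milk.

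RNA-seq was done on 19 mouse libraries, 11 of mammary gland and 8 of mammary tumor, from a study of mutant p53 in fibroblasts. The MG WT glands (n = 3) came from mice whose genotype was given as wild type. The MG N glands (n = 4) came from *N* mice, of which replicate 1 carried MMTV-neu and Fsp-Cre, and replicates 2 to 4 carried MMTV-neu with 1 copy of the conditional p53wm-R172H allele and no Cre. The MG NP glands (n = 4) and T NP tumors (n = 4) came from *NP* mice with MMTV-neu, Fsp-Cre and 1 copy of p53wm-R172H, and the T N tumors (n = 4) from mice with MMTV-neu and Fsp-Cre. MMTV-neu drives rat *Neu* (ERBB2) in mammary epithelium, and Fsp-Cre converts the conditional allele to the mutant form in fibroblasts, and whether it acted in B cells was not analysed here. The mice were of a mixed FVB, C57 and BALB/c background, the *N* and *NP* glands were taken from tumor-bearing animals, and the MG WT mice, age-matched per the paper, had no strain given in the labels.

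The deposited values are read counts divided by 1 size factor per library, called normalized counts below, and values are listed in the order of the replicates. Multiplied back, they gave 62645459, 54677315 and 54753948 reads on genes in the MG WT libraries, 20899152, 22777323, 26373331 and 23457938 in MG N, 24438444, 24015390, 21467242 and 26888814 in MG NP, 24002108, 25764961, 27262440 and 23520971 in T N and 23234914, 22642130, 20972633 and 22424183 in T NP. Immunoglobulin segments held 13008, 20164 and 24183 of these in MG WT, 45986, 7927, 24235 and 166906 in MG N glands and 272842, 30096, 84034 and 33210 in MG NP. Tumors held far fewer, 512, 220, 14875 and 880 in T N and 449, 2851, 1240 and 768 in T NP. The wild-type libraries were thus sequenced more deeply than every other library, and several tumor shares rest on few reads. Of all 744386 segment reads, 51.1% lay on heavy constant genes, 20.54% on the kappa constant gene, 16.9% on kappa V segments and 8.34% on heavy V segments. No read was found for 19 of the 264 segments, and 41 had fewer than 10 reads over the 19 libraries. V segments are similar in sequence: 137 of 218 shared at least 1 run of 75 bases with another immunoglobulin segment and 49 shared over 20% of such runs, so reads between close relatives could not be assigned with certainty.

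Several libraries stood apart. Transcript of 8 skeletal muscle genes (most abundant *Myh4*) summed to 311663, 2323589, 9709 and 1253478 normalized counts in MG NP, against 10805, 14485, 7479 and 284 in MG N, 76.8, 71.3 and 67.2 in MG WT, 2857, 247, 24304 and 219 in T N and 83.0, 1215, 4964 and 5314 in T NP. MG NP replicates 2 and 4 therefore held the most muscle transcript. The MG WT glands were nearly without white adipocyte transcript: 8 such genes (most abundant *Fabp4*) summed to 2341, 2875 and 1968, against 347006, 332355, 285105 and 390561 in MG N glands and 137955, 151762, 199707 and 364039.5 in MG NP. *Adipoq*, the adipocyte hormone, stood at 1.71, 23.4 and 9.82 in MG WT and at 36543 to 47029 in MG N, so the defining fat cell markers of whole mammary gland were close to absent from the wild-type libraries. Luminal epithelial transcript (8 genes, most abundant *Krt18*) summed to 72738, 79804 and 86632 in MG WT, 23873, 13159.5, 26789 and 15154 in MG N, 22599.8, 29484, 27107 and 10686 in MG NP, 100716, 177922, 96761 and 119585 in T N and 106232, 140099, 116985 and 121704 in T NP. MG N replicate 2 held the most *Rag1* (1825) and *Dntt* (291) of all 19 libraries, T N replicate 3 held most of the immunoglobulin reads of its group, and T NP replicates 1 and 2 bore library names with the same number. The part of these differences in tissue composition in the immunoglobulin results was not tested, and between MG WT and the other glands composition and genotype cannot be told apart.

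Immunoglobulin transcript was most abundant in the glands of *N* and *NP* mice, lower in wild-type glands and lowest in tumors. Segments took 0.0208, 0.0369 and 0.0442% of reads in MG WT, 0.220, 0.0348, 0.0919 and 0.712% in MG N glands and 1.12, 0.125, 0.391 and 0.124% in MG NP. Tumors had 0.00213, 0.000854, 0.0546 and 0.00374% in T N and 0.00193, 0.0126, 0.00591 and 0.00342% in T NP. All MG NP glands lay above all MG WT glands, MG N replicate 2 lay inside the wild-type range, and T N replicate 3 was the single tumor that reached the level of a gland. Group medians were 0.0369%, 0.156%, 0.258%, 0.00294% and 0.00467% in the same order. Leaving out 1 library moved the MG N median to between 0.0919% (without replicate 1 or 4) and 0.220% (without replicate 2 or 3), and the MG NP median to between 0.125% (without replicate 1 or 3) and 0.391% (without replicate 2 or 4). The lowest share, in T N replicate 2, had a 95% Wilson interval of 0.000748% to 0.000974%, and the highest, in MG NP replicate 1, of 1.11% to 1.12%. Intervals and floors cover counting error only. In bulk tissue, fewer B lineage cells and less antibody RNA per cell cannot be told apart.

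Genes that mark B cells were summed beside the segments. The 15 genes of the list (most abundant *Ms4a1*, the B cell surface protein CD20) summed to 2323, 4504 and 3781 normalized counts in MG WT, 11161, 540.2, 3324 and 13833 in MG N glands and 14159, 498, 24186 and 4704 in MG NP. In tumors the sums were 174, 52.7, 1045 and 75.9 in T N and 97.5, 786, 184 and 149 in T NP. MG N replicate 2 and MG NP replicate 2 lay below every wild-type gland in this list, although MG NP replicate 2 was above every wild-type gland in immunoglobulin reads. *Jchain*, which encodes the protein that links IgA and IgM into polymers, stood at 461, 1079 and 2147 in MG WT, 8164, 537, 1737 and 10708 in MG N, 17487, 4612, 4817 and 3045 in MG NP, 32.9, 15.8, 1156 and 67.7 in T N and 43.7, 248, 81.8 and 78.7 in T NP.

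**Figure D1:**
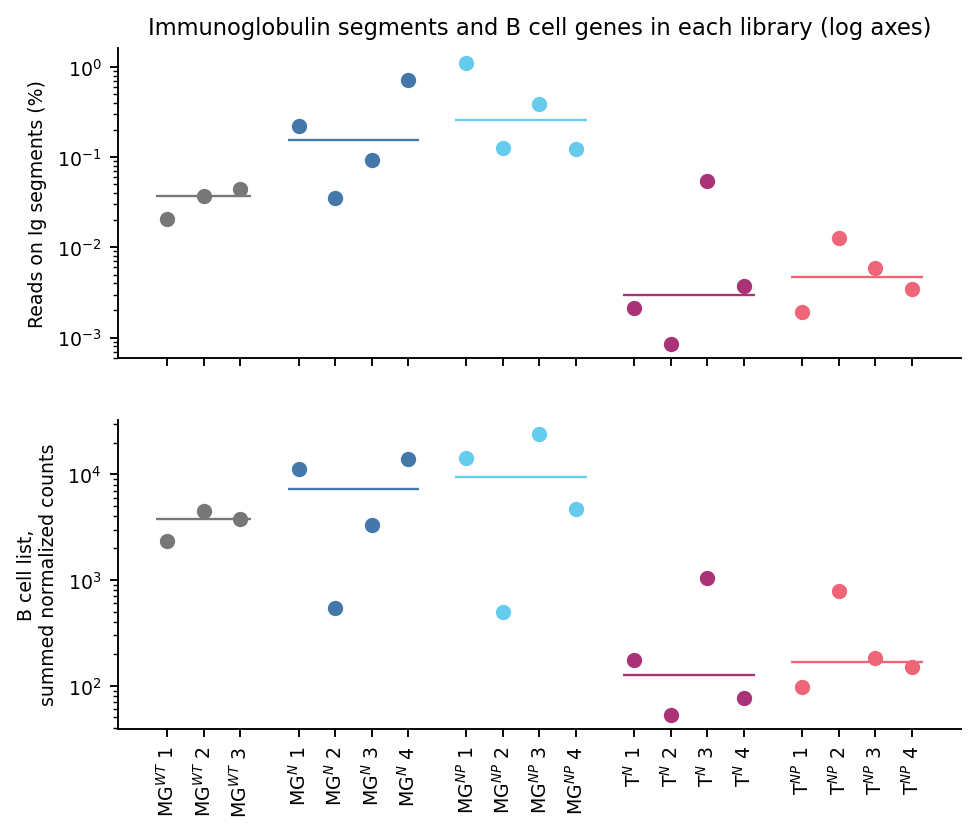
Top, reads on immunoglobulin segments as a percentage of all reads on genes in each of 19 libraries, and bottom, summed normalized counts of 15 B cell genes (log axes, 1 point per library, lines at group medians). Of the 8 tumors, T N replicate 3 alone reaches the glands in the top panel, where it held 0.0546% of reads on immunoglobulin segments.

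Isotype use was computed within each library as the share of each isotype among heavy constant reads per kilobase of exon, so that genes of unequal length could be compared. IgM, the isotype of naive and newly activated B cells, made up 36.1, 55.3 and 56.4% in MG WT, 20.9, 71.9, 59.2 and 40.2% in MG N glands and 23.4, 21.0, 81.2 and 75% in MG NP. In tumors it made up 56.1, 88.8, 98.7 and 39.6% in T N and 57.1, 69.4, 58.1 and 54.2% in T NP. IgM was the leading isotype in 13 of the 19 libraries, and the exceptions were MG WT replicate 1, MG N replicates 1 and 4, MG NP replicates 1 and 2 and T N replicate 4. The share ran from 20.9% to 98.7% and all 5 group ranges overlapped.

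IgA, the isotype of mucosal and milk antibody, made up 40.4, 19.4 and 15.6% in MG WT, 40.3, 13.3, 14.8 and 8.60% in MG N glands and 7.17, 56.2, 8.58 and 14.2% in MG NP. Its tumor shares were 26.2, 9.77, 0.392 and 8.0% in T N and 30.3, 7.50, 14.3 and 29.5% in T NP. IgA led in MG WT replicate 1, MG N replicate 1 and MG NP replicate 2, and was lowest in T N replicate 3. IgG, the main class of switched serum antibody, made up 14.8, 16.2 and 21.7% in MG WT, 32.3, 14.0, 23.9 and 49.9% in MG N glands and 68.1, 22.3, 7.40 and 10.4% in MG NP. The IgG shares of tumors were 16.1, 1.40, 0.808 and 51.9% in T N and 10.7, 19.9, 27.4 and 15.5% in T NP. IgG led in MG N replicate 4, MG NP replicate 1 and T N replicate 4, and the lead in MG N replicate 4 and T N replicate 4 came with *Ighg2b* as the largest subclass (25.7% and 21.1%). In MG NP replicate 1 the largest subclass was *Ighg2c* at 32.6%, followed by *Ighg1* at 24.7%.

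IgD, which naive B cells carry beside IgM, made up 8.57, 8.93 and 6.26% in MG WT but 3.95, 0.705, 1.92 and 1.26% in MG N glands and 0.458, 0.104, 2.65 and 0.274% in MG NP. Tumor IgD shares were 1.58, 0, 0.0640 and 0.468% in T N and 1.87, 2.97, 0.169 and 0.772% in T NP. All 3 wild-type glands thus lay above every other library in IgD share. The ratio of *Ighm* to *Ighd* per kilobase was 4.22, 6.20 and 9.01 in MG WT, 5.29, 102.05, 30.8 and 31.8 in MG N glands and 51.2, 202, 30.6 and 274 in MG NP. It reached 1544 in T N replicate 3, where *Ighd* rested on 5 reads. IgE, the isotype bound by mast cells and basophils, held 2.47, 0.0457, 0.203 and 0.0570% in MG N, 0.815, 0.461, 0.147 and 0.0374% in MG NP and 0.0758, 0.162 and 0.0480% in MG WT. MG N replicate 1 was highest, and *Ighe* had 0 reads in all 4 T N tumors and in 3 of 4 T NP tumors. T NP replicate 2 held 3 *Ighe* reads, 0.243% (Wilson 0.0826% to 0.711%).

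As group means the shares hid most of this spread. IgM averaged 49.3% ± 11.4 (SD, n = 3) in MG WT, 48.1% ± 22.3 (n = 4) in MG N, 50.2% ± 32.4 (n = 4) in MG NP, 70.8% ± 27.6 (n = 4) in T N and 59.7% ± 6.67 (n = 4) in T NP. IgA averaged 25.1% ± 13.4, 19.3% ± 14.3, 21.5% ± 23.3, 11.1% ± 10.9 and 20.4% ± 11.3 in the same order and on the same n. IgG averaged 17.6% ± 3.62, 30.03% ± 15.2, 27.0% ± 28.1, 17.6% ± 24.0 and 18.4% ± 7.10. Means that moved by over 1.5 times without 1 library were IgA in MG N (12.3% without replicate 1), MG NP (9.995% without replicate 2) and T N (6.05% without replicate 1), and IgG in MG NP (13.4% without replicate 1) and T N (6.11% without replicate 4). The SD exceeded the distance between any pair of gland means for each of these 3 isotypes in both MG N and MG NP. Heavy constant reads numbered 158 to 7792 per tumor, and the IgM share of T N replicate 2 had a Wilson interval of 83.7% to 92.5%.

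**Figure D2:**
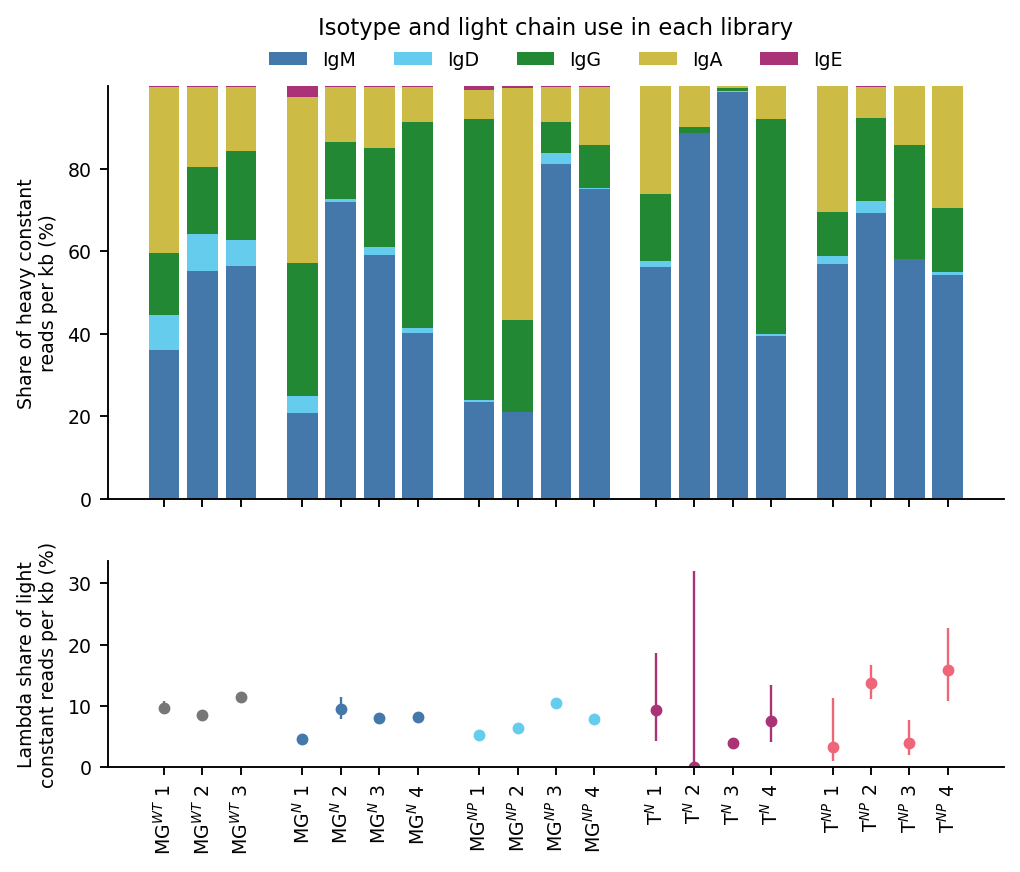
Top, stacked shares of IgM, IgD, IgG, IgA and IgE among heavy constant reads per kilobase (%), and bottom, lambda share of light constant reads per kilobase (%, bars 95% Wilson intervals), in each of 19 libraries. IgM takes 98.7% of T N replicate 3, IgG takes 68.1% of MG NP replicate 1, and IgA takes 56.2% of MG NP replicate 2.

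Kappa is the usual light chain of the mouse, and it held most light chain transcript in every library. The lambda share of light constant reads per kilobase was 9.66, 8.47 and 11.5% in MG WT, 4.66, 9.48, 8.05 and 8.18% in MG N glands and 5.25, 6.46, 10.5 and 7.89% in MG NP. It was 9.26, 0, 3.87 and 7.57% in T N and 3.33, 13.7, 3.99 and 15.8% in T NP. Group means were 9.88% ± 1.54, 7.59% ± 2.06, 7.52% ± 2.24, 5.17% ± 4.12 and 9.21% ± 6.47 (SD), and the ranges of all groups overlapped. The 0 of T N replicate 2 came from 10 light constant reads and allows a share of up to 32.1%, whereas the 15.8% of T NP replicate 4 came from 139 reads (Wilson 10.8% to 22.7%). Counted over V segments in place of constant genes, the MG NP mean was 4.58% ± 0.884 and the T N mean was 2.27%. Light and heavy constant transcript did not move in a fixed ratio: *Igkc* over *Ighm* per kilobase was 4.41, 3.39 and 4.08 in MG WT, 10.8, 0.961, 2.30 and 3.88 in MG N glands and 7.16, 8.96, 1.35 and 1.98 in MG NP. In tumors the same ratio was 1.66, 0.263, 1.20 and 3.02 in T N and 1.99, 1.86, 2.19 and 1.97 in T NP. MG N replicate 2 and T N replicate 2 were the libraries with more *Ighm* than *Igkc* per kilobase.

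The comparison of MG N with MG WT asked how the gland of a tumor-prone *N* mouse differs from a wild-type gland. Of the 8 heavy chain constant genes 4 were called higher in *N* glands, *Ighm*, *Ighg1*, *Ighg2b* and *Ighg2c*, which encode IgM and 3 IgG subclasses, and no segment was called lower. *Igha*, *Ighe*, *Igkc*, *Iglc1*, *Iglc2* and *Iglc3* had positive log2 differences but did not pass the test. Calls were made with limma on log2(normalized count + 1) at a Benjamini-Hochberg adjusted p under 0.05 and at least 2-fold, over all genes with 10 or more normalized counts in at least as many libraries as the smaller group holds. Of 264 segments, 130 were tested, 21 were called higher and 0 lower. Over all 19017 genes tested, 19.1% were called higher and 17.9% lower, so with limma the 16.2% of tested segments called higher is near the background. For the 0 lower, limma gave 0 at an unadjusted p under 0.05, and edgeR and DESeq2 also gave 0. edgeR called 44 segments and 3780 genes higher and DESeq2 66 and 3827, a larger share of segments than of genes in both. The limma count was 9, 10 or 11 without MG N replicate 1, MG N replicate 4 or MG WT replicate 1, and it was 71 without MG N replicate 2. The median log2 difference of the 130 was 1.73, against 0.02 for all genes tested, and 20 of the 130 had no wild-type library at the minimum of 10, so they had to differ to be tested.

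*Ighm* stood at 967, 2386 and 2892 normalized counts in MG WT and at 4531, 4308, 6827 and 29358 in MG N. The groups did not overlap, and MG N replicate 4 was highest. Its log2 difference was 2.07 ± 0.68 (SE), a 4.20-fold rise with an adjusted p of 0.0297 and a two-sided exact permutation p of 0.0286, the smallest that 3 against 4 libraries allow. *Ighg2b* stood at 87.9, 197 and 225 in MG WT and 2805, 419, 1277 and 26711 in MG N, without overlap, for a log2 difference of 3.99 ± 1.21 (adjusted p 0.0209, exact permutation p 0.0571). *Ighg1* (40.9, 299.7 and 225 against 3695, 199.98, 836 and 1838) rose by 2.87 ± 1.02 and *Ighg2c* (170.2, 132 and 454 against 1525, 278, 630.1 and 1766) by 1.93 ± 0.68 on the log2 scale, with adjusted p of 0.0396 and 0.0383. Both had 1 MG N library, replicate 2, inside the wild-type range. None of these 4 calls held in every leave-one-out run: *Ighm* ended without MG WT replicate 1 or 2, and *Ighg2b* without MG WT replicate 1 or 2 (highest adjusted p 0.115 and 0.0753). *Ighg1* ended without MG WT replicate 1 or 3, or without MG N replicate 1, 3 or 4, and *Ighg2c* without MG WT replicate 1 or 2, or without MG N replicate 1, 3 or 4 (highest adjusted p 0.148 and 0.132). In a fit of all 5 groups the calls of *Ighm*, *Ighg1* and *Ighg2c* were lost (adjusted p over all alternatives 0.00779 to 0.165, 0.00618 to 0.14 and 0.00169 to 0.207), and *Ighg1* was also lost with a replicate block, in which MG N replicate 4 has no partner and drops out (adjusted p 0.125).

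*Igha* stood at 1530.2, 1183 and 1131 in MG WT and 12352, 1129.8, 2419 and 8891 in MG N, with MG N replicate 2 just under the lowest wild-type gland (log2 difference 1.71 ± 0.76, adjusted p 0.0823). *Igkc*, the kappa constant gene, stood at 1204, 2283 and 3332 and 13836, 1168, 4422 and 32115 (log2 difference 1.73 ± 1.0, adjusted p 0.171). Without MG N replicate 2 both were called higher (*Igha* 2.34, adjusted p 0.00874, and *Igkc* 2.58, adjusted p 0.0157), and over the alternatives the adjusted p ran from 0.0121 to 0.0956 and from 0.0299 to 0.335. *Ighe* stood at 1.71, 5.86 and 2.07 and 449.6, 2.30, 19.7 and 35.0 (log2 difference 3.08 ± 1.41, adjusted p 0.0915, 0.00149 to 0.136 over the alternatives). It was high in MG N replicate 1, inside the wild-type range in replicate 2, and called without replicate 2 (4.18, adjusted p 0.0139), but no MG WT library reached the minimum of 10, so it had to be high in MG N to be tested. *Ighg3*, another IgG subclass, spread most, at 231, 1.15, 466 and 18394 in MG N around 83.2, 208 and 189 in MG WT (log2 0.77 ± 2.50, adjusted p 0.807). Over the alternatives its log2 difference ran from -1.28 to 4.90 and its adjusted p from 0.0833 to 0.836. *Ighd* stood at 231, 388 and 323 and 862, 42.5, 224 and 931, with overlap (log2 -0.05 ± 0.98, adjusted p 0.969). The lambda constant genes *Iglc1* (log2 1.59 ± 0.87, adjusted p 0.147), *Iglc2* (log2 0.59 ± 0.98, adjusted p 0.628) and *Iglc3* (log2 1.56 ± 1.19, adjusted p 0.289) overlapped and did not pass. Without MG N replicate 2, *Iglc1* (2.25, adjusted p 0.026) and *Iglc3* (2.59, adjusted p 0.0256) were called higher, and the adjusted p of the 3 over the alternatives ran from 0.0321 to 0.265, 0.412 to 0.916 and 0.0484 to 0.523. *Iglc4*, the remaining lambda constant gene, was at most at 10.8 normalized counts (MG NP replicate 3) and was never tested.

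Among V segments the largest rises without overlap were in a pair of heavy segments, both among the 20 that had to differ to be tested. *Ighv2-6* stood at 1.71, 0.488 and 5.68 in MG WT and 72.6, 34.5, 26.3 and 78.3 in MG N, a log2 difference of 4.02 ± 0.60 (adjusted p 0.000697). *Ighv1-22* stood at 0, 1.95 and 1.55 and 36.9, 14.9, 12.2 and 47.4, a log2 difference of 3.67 ± 0.60 (adjusted p 0.00114). Every MG N library was above every MG WT library for both, MG N replicate 2 included, and both calls held without any single library. The J segments *Ighj2*, also among the 20, and *Ighj4* rose too (log2 3.47 ± 0.73 and 2.15 ± 0.78, adjusted p 0.00395 and 0.042, no overlap in either), although *Ighj4* ended without MG WT replicate 1, 2 or 3, or without MG N replicate 1 (adjusted p up to 0.109). In all, 15 of the 21 called segments had groups that did not overlap, a count not made over all called genes. Beside these, limma called 0 of 14 tested B cell genes in either direction (0 at an unadjusted p under 0.05, 0 with edgeR and 0 with DESeq2), *Jchain* was not called (log2 1.56 ± 1.03, adjusted p 0.223), and 4 of 15 plasma cell and secretion genes were called higher and 2 lower, among them *Tnfrsf17*, the plasma cell survival receptor BCMA (2.99, 2.44 and 2.58 against 25.5, 19.5, 16.9 and 35.0, no overlap, log2 2.73 ± 0.34, adjusted p 0.000289), which was under the minimum of 10 in every MG WT library and so had to differ to be tested. Antibody receptor genes were called higher for 6 of 8, macrophage genes for 8 of 8, white adipocyte genes for 8 of 8 and skeletal muscle genes for 7 of 8, and luminal epithelial genes were called lower for 8 of 8. In these lists *Myh4*, *Ckm*, *Tnnc2*, *Mylpf*, *Pvalb* and *Fcer1a* were under the minimum of 10 in every MG WT library and so had to differ to be tested. The part of these lists in the immunoglobulin differences was not tested.

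The comparison of MG NP with MG WT, which shares the wild-type libraries with the comparison above, asked the same of glands whose fibroblasts may carry mutant p53. Both heavy and light chain transcript was higher in *NP* glands: *Ighm*, *Igha*, *Ighg2b*, *Ighe*, *Igkc* and the lambda constant gene *Iglc1* rose, with 65 V segments and 2 J segments. Of 150 segments tested, 73 were called higher and 0 lower, against 16.4% and 16.2% of all 19065 genes tested. The 48.7% of tested segments called higher is above that background, but 39 of the 150 had no wild-type library at the minimum of 10 and so had to differ to be tested. For the 0 lower, limma gave 0 at an unadjusted p under 0.05, and edgeR and DESeq2 gave 0. The median log2 difference was 2.84 over the 150 and 0.02 over all genes tested. Of the 73, 63 had groups that did not overlap, a count not made over all called genes. The count of 73 dropped to 27 without MG WT replicate 1 and to 39 without MG WT replicate 2. With MG NP replicates 1 and 3 alone, the pair with less muscle transcript, an alternative chosen after seeing the data, it was 128.

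*Igha* stood at 12285, 14067, 5977 and 4144 in MG NP against 1530.2, 1183 and 1131 in MG WT. Every MG NP gland was above every wild-type gland, for a log2 difference of 2.67 ± 0.43 (adjusted p 0.00259, exact permutation p 0.0286), 6.37-fold. *Igkc* stood at 57341, 9391, 15186 and 8634, also above all of 1204, 2283 and 3332, for a log2 difference of 2.96 ± 0.68 (adjusted p 0.0109, exact permutation p 0.0286). *Ighm* stood at 28394, 3717, 39999 and 15435, above all of 967, 2386 and 2892, for a log2 difference of 3.08 ± 0.81 (adjusted p 0.0178, exact permutation p 0.0571). The *Ighm* call ended without MG WT replicate 1 (adjusted p 0.0724), and in a fit of all 5 groups those of *Igkc* and *Iglc1* ended (adjusted p over the alternatives 1.67e-05 to 0.0866 and 1.36e-05 to 0.0634). *Ighg2b* (15368, 1656, 1812 and 1119.6) rose by 4.08 ± 0.88 (adjusted p 0.00834) and *Iglc1* (1684, 477, 533 and 269 against 67.4, 80.5 and 138) by 2.67 ± 0.59 on the log2 scale (adjusted p 0.00937), both without overlap. DESeq2, which drops genes with an outlying count, gave *Ighg2b* no adjusted p. *Ighe* (829.8, 68.5, 60.7 and 6.46 against 1.71, 5.86 and 2.07) rose by 4.22 ± 1.40 without overlap (adjusted p 0.0412), but the call ended without any 1 of the 3 MG WT libraries (adjusted p up to 0.121) and with a pseudocount of 5 (adjusted p 3.51e-06 to 0.0605 over the alternatives).

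*Ighg1* (41061, 1524, 732 and 431) and *Ighg2c* (27799, 1129, 711 and 671) were above every wild-type gland in all 4 MG NP glands, with MG NP replicate 1 far above the others. Neither passed with limma (log2 3.90 ± 1.56 and 3.18 ± 1.30, adjusted p 0.0744 and 0.0805, over the alternatives 0.0339 to 0.0989 and 0.0383 to 0.0941), although both were called in a fit of all 5 groups and with edgeR. Without MG NP replicate 1 both were called higher (*Ighg1* 2.47, adjusted p 0.0496, and *Ighg2c* 1.90, adjusted p 0.0211), and *Ighg1* also without MG NP replicate 4 (4.66, adjusted p 0.0496). *Ighd* stood at 559, 18.6, 1316 and 56.8, with MG NP replicates 2 and 4 below every wild-type gland and replicates 1 and 3 above (log2 -0.86 ± 1.38, adjusted p 0.635). With MG NP replicates 1 and 3 alone its log2 difference was 1.48 (adjusted p 0.0185, over the alternatives 0.0185 to 0.856), and edgeR and DESeq2 gave 0.64 and 0.63. *Ighg3* (log2 1.47 ± 1.28, adjusted p 0.373), *Iglc2* (log2 1.83 ± 0.94, adjusted p 0.145) and *Iglc3* (log2 2.44 ± 1.07, adjusted p 0.0986) overlapped and did not pass, with adjusted p over the alternatives of 0.00209 to 0.628, 0.0117 to 0.296 and 0.000927 to 0.157. Without MG NP replicate 2, *Iglc2* (2.55, adjusted p 0.0293) and *Iglc3* (3.4, adjusted p 0.00643) were called higher.

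*Ighv1-19* had the largest rise without overlap, from 2.13, 0.976 and 2.58 in MG WT to 244, 54.2, 110.5 and 78.8 in MG NP (log2 5.22 ± 0.54, 37.3-fold, adjusted p 0.000482). *Igkv6-32*, a kappa V segment, went from 2.56, 9.76 and 15.0 to 1695, 158, 717 and 33.6 (log2 5.08 ± 1.29, adjusted p 0.0159), a call that ended without MG WT replicate 1 (adjusted p 0.0647). *Ighv5-9-1* went from 0, 0.976 and 3.62 to 149.7, 25.7, 16.2 and 94.3 (log2 4.60 ± 0.88, adjusted p 0.00517). All 4 MG NP glands were above all 3 wild-type glands for each of these 3 segments. *Ighv1-19* and *Ighv5-9-1*, as well as *Ighj2* and *Ighe*, are among the 39 that had to differ to be tested. *Ighj2* and *Ighj4* rose again (log2 3.89 ± 0.82 and 2.56 ± 0.74, adjusted p 0.00753 and 0.025, no overlap), with *Ighj4* lost without any 1 of the 3 MG WT libraries (adjusted p up to 0.0801). Of the lambda V segments *Iglv1* rose (log2 2.43 ± 0.82, adjusted p 0.0432, no overlap, lost without MG WT replicate 1, 2 or 3, or without MG NP replicate 2, adjusted p up to 0.144), and *Iglv2* (log2 2.02 ± 1.43, adjusted p 0.28) and *Iglv3* (log2 1.17 ± 0.88, adjusted p 0.305) did not pass. Plasma cell and secretion genes were called higher for 8 of 15 and lower for 1, with *Jchain* (log2 2.52 ± 0.69, adjusted p 0.0213) and *Mzb1*, an antibody assembly factor (38.8, 67.4 and 84.7 against 1065, 99.9, 771 and 199, no overlap, log2 2.54 ± 0.83, adjusted p 0.0386), among them. The *Jchain* call ended without MG WT replicate 1 or 2 and the *Mzb1* call without MG WT replicate 1, 2 or 3, or without MG NP replicate 1 or 3 (adjusted p up to 0.0791 and 0.127). In the same comparison limma called 0 of 14 tested B cell genes (0 at an unadjusted p under 0.05, 0 with edgeR and 3 higher with DESeq2), among them *Ms4a1* (log2 1.49 ± 1.19, adjusted p 0.333), which was called higher without MG NP replicate 2 (2.62, adjusted p 0.00912). Antibody receptor genes were called higher for 6 of 8, macrophage genes for 7 of 8 and both white adipocyte and skeletal muscle genes for 8 of 8, luminal genes lower for 8 of 8, and their part in the immunoglobulin rises was not tested. Of the marker genes, *Myh4*, *Ckm*, *Tnnc2*, *Mylpf*, *Pvalb*, *Fcer1a* and *Tnfrsf17* were under the minimum of 10 in every MG WT library. They therefore had to differ to be tested.

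**Figure D3:**
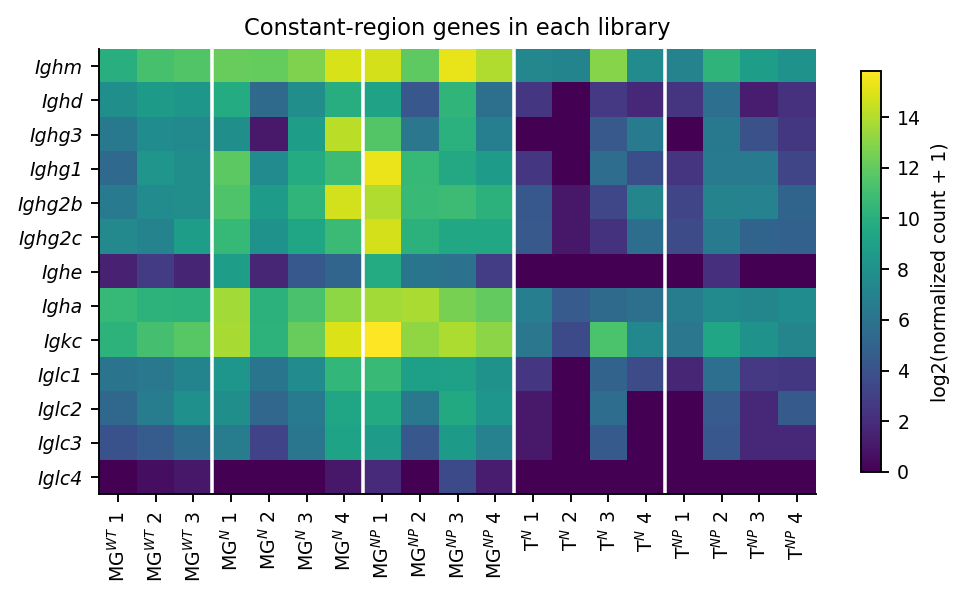
Heat map of log2(normalized count + 1) for the 13 immunoglobulin constant genes (vertical axis) in 19 libraries (horizontal axis, white lines between groups). *Igkc* reaches 57341 normalized counts in MG NP replicate 1, and *Ighe* is at 0 in 7 of the 8 tumors.

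The comparison of T N with MG N set *N* tumors against the glands of *N* mice. The T N mice carried Fsp-Cre, but MG N replicates 2 to 4 carried the conditional p53 allele without Cre, so for those glands tissue and genotype cannot be told apart. Nearly all tested segments were lower in tumors, heavy and light, V, J and C, and none was higher. *Igha*, *Ighd*, the 3 IgG genes *Ighg1*, *Ighg2b* and *Ighg2c*, *Ighm*, *Igkc* and *Iglc1*, *Iglc2* and *Iglc3* all fell. T N replicate 3 was the exception in level, and it kept gland-like *Ighm* and *Igkc*. Of 61 segments tested, 54 were called lower and 0 higher, against 22.3% and 12.8% of all 17950 genes tested. Of the 61, 34 had no tumor library at the minimum of 10, so they had to differ to be tested. For the 0 higher, limma gave 0 at an unadjusted p under 0.05, and edgeR and DESeq2 gave 0. edgeR called 54 lower and DESeq2 50. The count of 54 was 154 with no filter on low values and 139 with a filter on the mean over all libraries. Leaving out a library relaxes the filter, and the count was 108 without MG N replicate 2 and 101, 97, 103 and 101 without T N replicates 1 to 4. The median log2 difference of the 61 was -5.31 (-5.34 with the 9 segments at 0 in every tumor set to their bound), against -0.05 over all genes tested. Of the 54, 44 had groups that did not overlap, a count not made over all called genes.

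*Igha* stood at 106, 22.1, 43.4 and 56.0 in T N against 12352, 1129.8, 2419 and 8891 in MG N. All tumors were below all glands, T N replicate 3 included, and the gene fell by 6.38 ± 0.78 on the log2 scale (83.3-fold, adjusted p 0.000356, exact permutation p 0.0286, the smallest that 4 against 4 libraries allow). *Ighg2b* (19.3, 1.05, 9.09 and 148) had a log2 difference of -7.31 ± 1.5 (adjusted p 0.00392), *Ighg1* (4.54, 0, 49.5 and 12.8) of -7.03 ± 1.25 (0.00197) and *Ighg2c* (20.45, 1.05, 4.04 and 51.4) of -6.32 ± 1.02 (0.00127). *Ighd* (4.54, 0, 5.05 and 2.33) had a log2 difference of -6.52 ± 1.02 (adjusted p 0.00109). None of these 4 overlapped between tumors and glands, and no single library ended a call. *Ighm* stood at 160.2, 142, 7738 and 196 in T N, so that replicate 3 lay above all but 1 of the MG N glands and the groups overlapped. Its log2 difference was -4.19 ± 1.27 (adjusted p 0.023, exact permutation p 0.114), and the call ended without MG N replicate 4, or without T N replicate 1, 2 or 4 (adjusted p up to 0.0642) and with edgeR (adjusted p over the alternatives 0.00425 to 0.181), while DESeq2 gave no adjusted p. Without T N replicate 3 the log2 difference was -5.58. *Igkc* stood at 75, 10.5, 2610.5 and 167 (log2 -5.63 ± 1.60, adjusted p 0.0174, exact permutation p 0.0571), with replicate 3 above the lowest MG N gland, and its call ended without MG N replicate 4 (adjusted p 0.0503) and with edgeR (adjusted p over the alternatives 0.00135 to 0.0631). Without T N replicate 3 it was -7.03.

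The lambda constant genes *Iglc1* (4.54, 0, 32.3 and 11.7 against 309.5, 69.0, 193 and 1389), *Iglc2* and *Iglc3* fell as well (log2 -5.31 ± 1.18, -5.54 ± 1.35 and -4.90 ± 1.36, adjusted p 0.00574, 0.00889 and 0.016), and *Iglc2* and *Iglc3* overlapped through T N replicate 3. *Ighg3* was the 1 tested constant gene not called (0, 0, 20.2 and 93.4 against 231, 1.15, 466 and 18394, log2 -5.26 ± 2.61, adjusted p 0.122), and MG N replicate 2 was itself near 0. Without MG N replicate 2 it was called lower (-7.55, adjusted p 0.0209), and over the alternatives the adjusted p ran from 0.0147 to 0.134. *Ighe* was at 0 in all 4 tumors and was not tested for lack of counts (449.6, 2.30, 19.7 and 35.0 in MG N).

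Of the V segments, *Igkv3-4* fell most without overlap by the fitted log2 difference, from 281, 67.8, 103 and 612 in MG N to 1.14, 0, 0 and 0 in T N (log2 -7.28 ± 0.68, adjusted p 0.00013), with 1 read in the tumors (937-fold by the means, counting interval 168 to 37002). It is among the 34 that had to differ to be tested, as are *Ighv2-6*, *Igkv6-32*, *Ighj4* and *Ighd*. *Igkv2-109* and *Igkv12-44*, at 0 reads in T N, were at least 238-fold and 192-fold below the MG N mean, so their place in this order is not known. *Ighv2-6*, the segment with the largest rise in MG N over MG WT, had 0 reads in all 8 tumors, at least 64.8-fold below the mean of MG N and at least 79.0-fold below that of MG NP, with 3 reads over the group as the floor. *Igkv6-32* had 0 reads in T N against 229, 14.9, 13.1 and 353 in MG N, and *Ighv1-19*, not tested for lack of counts, had 0 against 73.9, 3.45, 10.3 and 27.8. Negative log2 differences that were not called included *Ighv11-2* (0, 0, 1513 and 2.33 against 43.3, 8.05, 46.0 and 719, log2 -2.85 ± 2.37, adjusted p 0.339), *Igkv14-126* (0, 0, 2675 and 5.84 against 127, 14.9, 84.5 and 1471, log2 -3.45 ± 2.50, adjusted p 0.276) and *Igkv14-111* (15.9, 37.9, 9.09 and 59.5 against 203, 26.4, 107 and 5986, log2 -3.28 ± 1.46, adjusted p 0.0894), all with overlap. Without T N replicate 3, *Ighv11-2* and *Igkv14-126* were called lower (-5.34, adjusted p 0.0119, and -6.06, adjusted p 0.00979). Without MG N replicate 2, *Igkv14-111* was called lower (-4.34, adjusted p 0.034). *Ighv2-2* was also not called (log2 -4.89 ± 1.87, adjusted p 0.055) but was without MG N replicate 2 (-6.15, adjusted p 0.0262). B cell genes were called lower for 11 of the 13 tested and T cell genes for 10 of 10, lymph node stroma genes for 4 of 5 tested, white adipocyte genes for 8 of 8 and antibody receptor genes for 4 of 8 with 1 higher. In these lists *Fcer2a*, *Ccl19*, *Ccl21a*, *Fcer1a* and *Fcamr* were under the minimum of 10 in every T N tumor and so had to differ to be tested. Luminal epithelial genes were called higher for 7 of 8 and lower for 1, skeletal muscle genes were called for 0 of 8 (limma 0 at an unadjusted p under 0.05, edgeR 0, DESeq2 0), macrophage genes were called lower for 3 of 8, and the part of these shifts in tissue composition in the fall of immunoglobulin transcript was not tested.

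The comparison of T NP with MG NP set *NP* tumors against *NP* glands and shares no library with the one before it. Immunoglobulin transcript was again lower in tumors, and here all 11 tested constant genes, 5 J segments and 92 V segments fell. Of 110 segments tested, 108 were called lower and 0 higher, against 24% and 14.7% of all 17880 genes tested, and 72 of the 110 had no tumor library at the minimum of 10, so they had to differ to be tested. For the 0 higher, limma gave 0 at an unadjusted p under 0.05, and edgeR and DESeq2 gave 0. edgeR called 109 lower and DESeq2 83, and the limma count was 171 with no filter on low values. The median log2 difference was -5.27, also with 3 segments set to their bound, against -0.07 over all genes tested, a median that was 0.03 after TMM scaling. Of the 108, 101 had groups that did not overlap, a count not made over all called genes. Both segments not called were V segments, of which *Ighv12-3* (6.73, 14.6, 22.1 and 0 in T NP against 30.5, 2.85, 5176 and 108 in MG NP, log2 -3.65 ± 2.01, adjusted p 0.152, with overlap) was called lower without MG NP replicate 2 (-5.17, adjusted p 0.0412).

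*Igha* stood at 102.03, 190.3, 155 and 201.02 in T NP against 12285, 14067, 5977 and 4144 in MG NP. It fell by 5.68 ± 0.41 on the log2 scale (51.3-fold, adjusted p 2.1e-05, exact permutation p 0.0286), with every tumor below every gland. *Igkc* stood at 76.2, 654, 274 and 145 against 57341, 9391, 15186 and 8634 (log2 -6.26 ± 0.76, 76.8-fold, adjusted p 0.000233). *Ighm* stood at 136, 1244, 444 and 261 against 28394, 3717, 39999 and 15435 (log2 -5.41 ± 0.84, 42.6-fold, adjusted p 0.000864). T NP replicate 2 was the highest tumor for *Ighm* and *Igkc*, and neither gene overlapped between groups. The 4 IgG genes had log2 differences of -5.47 (*Ighg3*, adjusted p 0.0155), -5.76 (*Ighg2b*, 0.00178), -5.90 (*Ighg2c*, 0.00318) and -6.37 (*Ighg1*, 0.00705), and *Ighg3* alone of them overlapped between groups. DESeq2 gave no adjusted p for *Ighg1*, *Ighg2b* or *Ighg2c*. *Ighd* stood at 4.48, 53.7, 1.30 and 3.75 against 559, 18.6, 1316 and 56.8 with overlap (log2 -4.49 ± 1.45, adjusted p 0.0268), and its call ended without MG NP replicate 1 or 3, or without T NP replicate 1, 3 or 4 (adjusted p up to 0.0703) and with a replicate block (adjusted p over the alternatives 0.000244 to 0.0702). *Iglc1*, *Iglc2* and *Iglc3* fell by 6.02, 5.75 and 5.19 (adjusted p 0.00067, 0.00295 and 0.00513, no overlap). *Ighe* (0, 3.66, 0 and 0 against 829.8, 68.5, 60.7 and 6.46) was not tested.

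*Igkv8-30* fell most, from 892, 119.9, 237 and 2243 in MG NP to 0, 7.32, 0 and 2.50 in T NP (log2 -7.72 ± 1.02, adjusted p 0.00037). *Igkv6-32*, high in MG NP over MG WT, went to 0, 2.44, 0 and 1.25 (log2 -7.42 ± 1.12, adjusted p 0.000706), 3 reads (706-fold by the means, counting interval 242 to 3423). *Igkv12-46* went from 853, 271, 161 and 45.2 to 0, 1.22, 1.30 and 0 (log2 -7.09 ± 0.81, adjusted p 0.000177), 2 reads (528-fold by the means, counting interval 146 to 4362). For all 3 every tumor was below every gland, and all 3 are among the 72 that had to differ to be tested, as are *Ighj4*, *Igkj3*, *Igkj4* and *Igkj5*. The J segments *Igkj5* (log2 -5.05 ± 0.81, adjusted p 0.000985) and *Ighj4* (log2 -5.13 ± 0.76, adjusted p 0.000643) fell without overlap, as did *Igkj3* (adjusted p 0.000723, 2 tumor reads, 78.0-fold by the means, counting interval 21.6 to 644) and *Igkj4* (adjusted p 0.000812, 3 tumor reads, 101-fold by the means, counting interval 34.5 to 488). The lambda V segments *Iglv1*, *Iglv2* and *Iglv3* fell by 5.17, 3.67 and 5.22 (adjusted p 0.000736, 0.0123 and 0.00224), with overlap for *Iglv2* alone. *Igkv4-91* also fell (log2 -5.01 ± 1.64, adjusted p 0.0284), a call that ended without MG NP replicate 1 or 3, or without T NP replicate 1 or 4 (adjusted p up to 0.0712). Beside them, B cell genes were called lower for 11 of 14 tested, T cell genes for 8 of 10, lymph node stroma genes for 2 of 4 tested, antibody receptor genes for 3 of 7 tested with 1 higher, macrophage genes for 2 of 8, and white adipocyte and skeletal muscle genes for 8 of 8 each. In these lists *Fcer1a* was under the minimum of 10 in every T NP tumor and so had to differ to be tested. Luminal epithelial genes were called higher for 7 of 8 and lower for 1, and the part of these lists in the immunoglobulin fall was not tested. Whether the tumor-gland difference was unequal in *N* and *NP* mice was tested as an interaction over 16 libraries: limma called 0 of 164 segments and 0 of 19367 genes, 1 segment and 1536 genes had an unadjusted p under 0.05, the smallest adjusted p of a segment was 0.518, and edgeR and DESeq2 were not used for it. The genotype difference between T N and MG N mice enters this test as well.

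The comparison of MG NP with MG N asked whether mutant p53 in fibroblasts changed the gland, with the limit that 3 of the 4 *N* glands lacked Fsp-Cre, so that Cre and mutant p53 cannot be told apart in those. No immunoglobulin segment was called, although most had a positive log2 difference. All segments were read in the same libraries, so these differences are not independent of each other. Of 163 segments tested, 152 had a higher mean log2 value in MG NP and 11 in MG N, the median log2 difference was 1.0 against -0.02 over all genes tested, and limma called 0 higher and 0 lower, as it did for 0% and 0% of all 18563 genes. At an unadjusted p under 0.05 limma gave 8 higher and 0 lower (794 and 1156 of all genes), edgeR called 0, and DESeq2 called 3 higher and 0 lower (399 and 126 of all genes). The higher shares are near those of all genes, whereas the 0 lower with limma is under the share of all genes. The 3 segments called by DESeq2, named after their values were seen, were *Ighv1-42*, *Ighv2-9* and *Ighv5-9-1*. *Ighv5-9-1* stood at 149.7, 25.7, 16.2 and 94.3 in MG NP and 19.1, 5.75, 5.63 and 8.24 in MG N (log2 2.41 ± 0.73, limma adjusted p 0.339, DESeq2 adjusted p 0.00765), with overlap. *Ighv2-9* stood at 1059, 166, 107 and 843 and 168, 19.5, 34.7 and 122 (log2 2.51 ± 0.94, limma adjusted p 0.395, DESeq2 adjusted p 0.0375), also with overlap. Constant genes also did not pass: *Ighm* differed by 1.01 ± 0.85, *Igha* by 0.96 ± 0.77, *Igkc* by 1.24 ± 1.03 and *Ighg2b* by 0.09 ± 1.29 on the log2 scale (adjusted p 0.751, 0.741, 0.75 and 0.994). All 12 tested constant genes overlapped between the groups, and the difference turned sign without a single library for *Ighg1*, *Ighg2b*, *Ighg2c*, *Ighg3*, *Ighe*, *Ighd* and *Iglc3*. For *Ighe* it went without MG NP replicate 1 from 1.15 to -0.03 and for *Ighg1* from 1.03 to -0.40. In the 11 marker lists limma called 0 of 105 tested genes between MG NP and MG N, with 10 higher and 7 lower at an unadjusted p under 0.05, while edgeR called 0 and DESeq2 8 higher, all skeletal muscle genes, and 1 lower.

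The comparison of T NP with T N asked the same of tumors. Antibody transcript was scarce in both tumor groups and no segment was called. Only 8 of 264 segments had enough counts to be tested, 7 of them constant genes and the other *Igkv14-111*, and limma called 0 higher and 0 lower, against 0.0361% and 0.00601% of all 16638 genes. At an unadjusted p under 0.05 limma gave 1 higher and 0 lower (763 and 447 of all genes), and edgeR and DESeq2 called 0. That 1 was *Igha*, at 102.03, 190.3, 155 and 201.02 in T NP and 106, 22.1, 43.4 and 56.0 in T N, or 162 ± 44.6 and 56.8 ± 35.4 (SD, n = 4 each). T N replicate 1 lay just above the lowest T NP tumor, so the groups overlapped (log2 1.66 ± 0.46, adjusted p 0.615, exact permutation p 0.0571, smallest possible 0.0286). *Ighm* stood at 136, 1244, 444 and 261 in T NP and *Igkc* at 76.2, 654, 274 and 145, and both groups overlapped for each (log2 -0.21 ± 1.27 and 0.60 ± 1.45, adjusted p 0.979 and 0.934). Both values rested on T N replicate 3: without it *Ighm* differed by 1.18 and *Igkc* by 2.01, and edgeR gave -1.32 for *Igkc*. For *Ighm* the log2 difference ran from -1.98 to -0.00419 over the alternatives. *Igkv14-111* stood at 62.8, 18.3, 26.0 and 12.5 in T NP and 15.9, 37.9, 9.09 and 59.5 in T N (log2 0.04 ± 0.67, adjusted p 0.994). *Ighg1*, *Ighg2b*, *Ighg2c* and *Ighg3* had log2 differences of 1.69, 1.64, 1.66 and 0.49 and were not called. Of the 8 tested, 7 had a positive log2 difference and 1 a negative one. The other 256 segments were not tested between the tumor groups. In the 11 marker lists limma called 0 of 77 tested genes, with 3 higher and 0 lower at an unadjusted p under 0.05, and edgeR and DESeq2 called 0.

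T N replicate 3 drew most of its V reads from 1 heavy and 1 kappa segment. In T N replicate 3, *Ighv11-2* held 97.7% of heavy V reads (1498 of 1534, Wilson 96.8% to 98.3%) and *Igkv14-126* held 95.6% of kappa V reads (2649 of 2772, Wilson 94.7% to 96.3%). This is the tumor in which 98.7% of heavy constant reads per kilobase were IgM. In MG NP replicate 3, *Ighv12-3* held 61.7% of heavy V reads (4779 of 7743, Wilson 60.6% to 62.8%) and *Igkv4-91* held 41.7% of kappa V reads (4861 of 11664, Wilson 40.8% to 42.6%). IgM made up 81.2% of that gland. As background, both heavy and kappa segments are known as pairs: *Ighv11-2* with *Igkv14-126*, and *Ighv12-3* with *Igkv4-91*, encode antibodies to phosphatidylcholine made by B-1 cells, a self-renewing B cell type of body cavities that secretes IgM. Whether the reads of a pair come from the same cells cannot be told from bulk counts, and *Ighv11-2* shares 24.8% of its 75-base runs with *Ighv11-1*.

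*Ighv11-2* stood at 0, 0, 1513 and 2.33 normalized counts in T N and 0, 31.7, 1.30 and 0 in T NP. In glands it stood at 4.69, 72.2 and 7.23 in MG WT, 43.3, 8.05, 46.0 and 719 in MG N glands and 368, 17.1, 85.6 and 178 in MG NP. T N replicate 3 was higher than any gland, and after it *Ighv11-2* was highest in MG N replicate 4. *Igkv14-126* stood at 0, 0, 2675 and 5.84 in T N, 0, 54.9, 2.60 and 3.75 in T NP, 11.1, 112 and 19.1 in MG WT, 127, 14.9, 84.5 and 1471 in MG N glands and 886, 79.9, 65.0 and 254 in MG NP. Both segments were highest in the same library, and in MG WT both were highest in replicate 2. *Ighv12-3* stood at 30.5, 2.85, 5176 and 108 in MG NP, 17.8, 0, 22.5 and 21.6 in MG N, 0.426, 4.88 and 0 in MG WT and 6.73, 14.6, 22.1 and 0 in T NP, and had 0 reads in T N. *Igkv4-91* stood at 418, 38.5, 5265 and 141 in MG NP, 103, 13.8, 46.0 and 30.9 in MG N, 21.3, 11.7 and 11.4 in MG WT and 6.73, 30.5, 46.8 and 0 in T NP, and also had 0 reads in T N. MG NP replicate 3 was far above every other library for both, and T NP replicates 1 to 3 held both while replicate 4 held neither.

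The 4 leading segments are printed because each pair led 1 library, and they differ where the antigen-binding loop of the joined chain begins. The last 300 bases of the GENCODE vM21 transcripts (GRCm38) are given 5′ to 3′, with capitals from the codon of the conserved cysteine, the last residue before the third complementarity-determining region, to the 3′ end. The genes lie at chr12:114048241-114048812 (minus strand), chr6:67896172-67896642 (plus strand), chr12:114366521-114366954 (minus strand) and chr6:68768555-68769103 (minus strand). The capitals run over 11, 26, 14 and 28 bases, longer in both kappa segments than in both heavy segments.
Ighv11-2: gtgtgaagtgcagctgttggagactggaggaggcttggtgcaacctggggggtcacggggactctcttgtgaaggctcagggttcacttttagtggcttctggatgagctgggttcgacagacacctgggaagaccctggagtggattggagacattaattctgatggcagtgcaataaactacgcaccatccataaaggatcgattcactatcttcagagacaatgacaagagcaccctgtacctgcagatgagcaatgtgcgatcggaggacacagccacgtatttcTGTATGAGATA
Igkv14-126: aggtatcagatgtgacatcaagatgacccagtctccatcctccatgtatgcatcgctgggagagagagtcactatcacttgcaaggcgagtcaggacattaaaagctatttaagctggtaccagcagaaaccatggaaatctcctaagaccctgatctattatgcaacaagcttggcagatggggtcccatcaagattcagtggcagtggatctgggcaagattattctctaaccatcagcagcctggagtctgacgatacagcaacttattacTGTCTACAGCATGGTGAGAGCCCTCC
Ighv12-3: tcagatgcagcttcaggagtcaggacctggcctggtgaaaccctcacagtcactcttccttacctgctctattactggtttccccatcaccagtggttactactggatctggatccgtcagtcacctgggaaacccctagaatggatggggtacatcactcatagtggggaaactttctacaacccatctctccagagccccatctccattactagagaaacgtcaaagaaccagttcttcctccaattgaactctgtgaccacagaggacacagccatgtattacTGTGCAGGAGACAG
Igkv4-91: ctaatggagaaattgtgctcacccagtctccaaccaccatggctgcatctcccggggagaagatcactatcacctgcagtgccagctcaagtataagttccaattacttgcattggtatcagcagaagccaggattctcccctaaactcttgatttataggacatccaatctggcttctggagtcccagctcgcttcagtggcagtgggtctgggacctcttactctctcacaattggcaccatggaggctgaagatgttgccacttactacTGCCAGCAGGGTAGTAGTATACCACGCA

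Other libraries had milder leaders. MG N replicate 4 drew 28.8% of heavy V reads from *Ighv2-2* and 25% from *Ighv5-17*, and 27.8% and 18.0% of kappa V reads from *Igkv1-110* and *Igkv14-111*. It was also the gland with most *Ighg2b* and *Ighg3*. MG NP replicate 4 drew 29.5% of heavy V reads from *Ighv2-9* and 27.4% and 23.2% of kappa V reads from *Igkv8-30* and *Igkv6-15*. MG N replicate 3 had *Ighv14-2* at 21.2% and *Igkv4-79* at 17.3%. The top heavy V segment of the MG WT glands held 13.0, 9.20 and 10.4% (*Ighv3-8*, *Ighv11-2* and *Ighv2-9*). MG N replicates 1 and 2 and MG NP replicates 1 and 2 were the most even glands for heavy V segments, with top heavy shares of 5.73%, 7.35%, 4.43% and 7.06%. MG NP replicate 1, the library with the most immunoglobulin reads, was thus high without a leading segment.

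The spread can be put as an effective number, the count of equally used segments that would give the same concentration of reads. For heavy V segments it was 27.3, 31.1 and 29.0 in MG WT, 44.0, 38.6, 15.9 and 6.41 in MG N glands and 47.7, 33.7, 2.58 and 9.46 in MG NP. In tumors it was 10.3, 2.00, 1.05 and 8.11 in T N and 19.4, 19.7, 11.4 and 26.1 in T NP. MG NP replicate 3 had the lowest value of the glands and T N replicate 3 of the tumors. For kappa V segments it was 32.7, 22.5 and 37.5 in MG WT, 35.6, 35.2, 19.1 and 7.65 in MG N, 37.7, 40.3, 5.42 and 7.15 in MG NP, 12.5, 1.69, 1.09 and 6.07 in T N and 2.92, 23.9, 9.08 and 26.0 in T NP. The same libraries were low for both chains in the glands, namely MG N replicate 4 and MG NP replicates 3 and 4. The 7 tumors other than T N replicate 3 held 4 to 222 heavy V reads. In 100 heavy V reads the expected number of segments was 23 in T N replicate 1, 36.3 in T NP replicate 2 and 30.1 in T NP replicate 3, against 24.96 to 48.0 in glands, and the other 4 had too few reads for this.

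The same kappa segment led in several tumors. *Igkv14-111* was the most read kappa V segment in T N replicates 1, 2 and 4 and T NP replicate 1, and in T NP replicate 4 it led *Igkv1-110* by 10 reads to 9. It held 14 of 58, 36 of 47 and 51 of 154 kappa V reads in the T N tumors (24.1%, 76.6% and 33.1%) and 56 of 97 and 10 of 101 in the T NP tumors (57.7% and 9.90%). In the other 3 tumors it held 9 of 2772 (T N replicate 3, 0.325%), 15 of 403 (T NP replicate 2, 3.72%) and 20 of 196 (T NP replicate 3, 10.2%). In T N replicate 2 its 36 reads (Wilson 62.8% to 86.4%) stood against 10 reads on *Igkc*, the constant gene to which every kappa V segment is spliced. Its normalized counts were 15.9, 37.9, 9.09 and 59.5 in T N and 62.8, 18.3, 26.0 and 12.5 in T NP, against 12.4, 38.6 and 25.3 in MG WT, 203, 26.4, 107 and 5986 in MG N glands and 1296, 221, 139.7 and 87.8 in MG NP. The tumor range overlapped that of wild-type glands, unlike that of *Igkc*, whose tumors other than T N replicate 3 all lay below every wild-type gland. *Igkv14-111* shared no 75-base run with another immunoglobulin segment, and it was 1 of the 8 segments with counts enough to be tested between tumors.

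**Figure D4:**
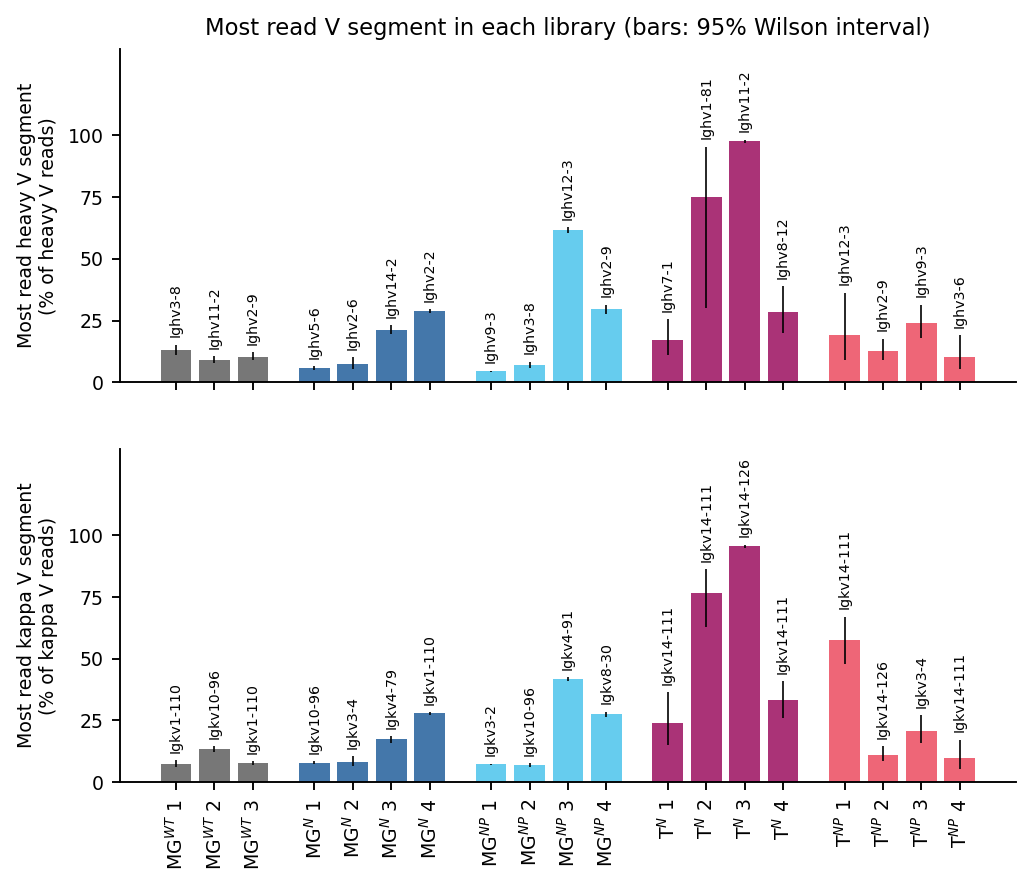
Share of the most read heavy V (top) and kappa V (bottom) segment among the V reads of its chain (%) in each of 19 libraries, with the segment's name and 95% Wilson intervals. *Ighv11-2* and *Igkv14-126* hold 97.7% and 95.6% in T N replicate 3, and *Igkv14-111* leads in 5 of 8 tumors, in T NP replicate 4 by 1 read.

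J and D segments are short, and few reads were counted on them: J segments held 2407 kappa, 1846 heavy and 248 lambda reads, and D segments 31 reads in all. Nearly all of these segments are shorter than a 75-base read. Whether the reads came from joined or unjoined RNA was not tested, so the counts are not a measure of J use. Per 10 bases of segment, *Igkj4* had 224 reads over all libraries, *Igkj5* 161, *Igkj3* 102.1, *Igkj2* 80.2 and *Igkj1* 38.4. The level of *Igkj3* is of interest because it is known as a J segment that joined kappa chains do not use, and its germline sequence lacks the Phe-Gly-X-Gly motif of functional J segments. Its reads numbered 128 in MG N replicate 4 and 99 in MG NP replicate 1, and it lay above *Igkj2* in MG WT replicates 1 and 2, MG N replicates 3 and 4, MG NP replicates 1, 2 and 4 and T NP replicate 1. The 5 segments are printed from GENCODE vM21 transcripts (GRCm38, plus strand, 5′ to 3′) to show the motif, whose codons are in capitals and which *Igkj3* does not hold. The transcripts lie at chr6:70722562-70722599, chr6:70722916-70722954, chr6:70723223-70723260, chr6:70723548-70723585 and chr6:70723886-70723923.
Igkj1: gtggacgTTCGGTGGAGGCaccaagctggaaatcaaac
Igkj2: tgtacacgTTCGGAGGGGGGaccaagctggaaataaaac
Igkj3: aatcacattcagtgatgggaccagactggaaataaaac
Igkj4: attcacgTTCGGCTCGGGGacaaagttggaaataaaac
Igkj5: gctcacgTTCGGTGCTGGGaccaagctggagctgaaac

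Among heavy J segments *Ighj4* led with 156 reads per 10 bases, followed by *Ighj3* (85.0), *Ighj2* (42.4) and *Ighj1* (32.6), an order that is likewise not a measure of J use. T N replicate 3 was an exception, with 18 reads on *Ighj2*, 7 on *Ighj1*, 4 on *Ighj4* and 1 on *Ighj3*. Lambda J segments held 121 reads on *Iglj3p*, 79 on *Iglj3*, 43 on *Iglj1* and 5 on *Iglj4*, and 0 on *Iglj2*, whose exon lies inside *Iglc2* on the same strand. The D segment with most reads was *Ighd4-1* with 22, all but 1 of them in MG N and MG NP glands, then *Ighd2-3* with 4 and *Ighd1-1* with 3. Of 19 D segments, 14 had 0 reads. *Iglv1*, the main lambda V segment, stood at 45.2, 78.6 and 148 in MG WT, 372, 60.9, 189.7 and 1586 in MG N, 2029.6, 365, 225 and 223 in MG NP, 2.27, 0, 34.3 and 7.0 in T N and 7.85, 34.2, 9.09 and 6.24 in T NP. *Iglv3* was read in 1 *NP* tumor, T NP replicate 2, at 11. Besides *Iglj2*, *Iglc3* overlaps an antisense gene on the opposite strand, and since the strand setting of the counting is not given, reads of that gene could have been counted on *Iglc3*. *Ighg2c* is the form of this IgG gene in C57BL/6, and BALB/c carries *Ighg2a* in its place, so in mice of mixed background part of the reads of that subclass may be missing from its count.

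Genes for making and moving antibody changed in both directions in tumors. Plasma cell and secretion genes (15, most abundant *Hsp90b1*, a chaperone of all secretory cells) summed to 19312, 17852 and 24544 in MG WT, 42752, 22944, 24462 and 43139.5 in MG N glands and 50786, 29319, 38943 and 26419 in MG NP. Tumors had more, 87449, 53872, 80538 and 58025 in T N and 87924, 76376, 59763 and 83669 in T NP. Of the 15, 6 were called higher and 6 lower in T N against MG N, and 5 higher and 6 lower in T NP against MG NP. *Xbp1*, a secretory transcription factor that epithelium also uses, was called higher in both (log2 1.75 ± 0.44, adjusted p 0.0102, and log2 2.46 ± 0.20, adjusted p 3.73e-05), while *Jchain* (log2 -5.20 ± 1.39 and -5.99 ± 0.63) and *Mzb1* (-4.00 ± 1.34 and -5.41 ± 0.97) fell with the segments (adjusted p 0.0136 and 0.000116, and 0.0334 and 0.00178). In T N against MG N the calls of *Mzb1* and *Ms4a1* (log2 -3.85 ± 1.26, adjusted p 0.0311) each ended without any 1 of MG N replicates 1, 3 and 4 or T N replicates 1, 2 and 4 (adjusted p up to 0.086 and 0.0845). *Tnfrsf17*, which marks plasma cells, had 0 reads in T N replicates 1, 2 and 4 and T NP replicates 1, 3 and 4. In T NP against MG NP it was under the minimum of 10 in every tumor, so it had to differ to be tested.

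*Pigr*, the receptor that carries IgA across epithelium, was higher on average in tumors, while *Igha* was higher in glands. It stood at 1252, 2845, 1850.1 and 1266 in T N and 2804, 2110.4, 2763 and 1346 in T NP, against 1897, 24.1, 72.3 and 70.0 in MG N, 323, 144, 461 and 89.1 in MG NP and 138, 337 and 136 in MG WT. MG N replicate 1 was the 1 gland at the level of tumors, and it was also the MG N gland with the most *Igha*. *Pigr* rose in T N over MG N (log2 3.76 ± 1.15, adjusted p 0.0238, lost without MG N replicate 2, 3 or 4, or without T N replicate 2, adjusted p up to 0.0626) and in T NP over MG NP (log2 3.36 ± 0.50, adjusted p 0.000681, no overlap), and was not called between glands except as lower in MG N against MG WT without MG N replicate 1 (-1.87, adjusted p 0.0203). Of the 12 genes for IgA homing, induction and transport (most abundant *Vcam1*), MG N had 3 called higher and 1 lower than MG WT, with 1 and 1 in MG NP against MG WT, 2 and 5 in T N against MG N, and 2 and 4 in T NP against MG NP. Their sums ran from 5263 to 6152 in MG WT, 3598 to 8373 in MG N and 2839 to 11265 in MG NP to 2901 to 4384 in T N and 3218 to 4811 in T NP. *Rag1*, which cuts segments for joining, stood at 112, 1825, 88.3 and 8.24 in MG N, 17.2, 261, 43.3 and 32.3 in MG NP and 0.426, 1.95 and 1.55 in MG WT, highest in MG N replicate 2, where the B cell sum was lowest of the group. Which cells the *Rag1* transcript came from was not tested. Of the 10 genes of recombination, surrogate light chain and class switching (most abundant *Msh6*, a general DNA repair gene), 2 were called higher in each gland comparison with MG WT (of 5 and 6 tested, *Rag1* at log2 5.69 ± 1.48, adjusted p 0.0108, and log2 4.54 ± 0.87, adjusted p 0.00521, without overlap but under the minimum of 10 in every MG WT library, so that it had to differ to be tested), 1 higher of 3 tested in T N against MG N and 2 lower of 5 tested in T NP against MG NP. *Vpreb2*, a surrogate light chain gene, had 0 reads in every library, and *Igll1* had 0 in 7 of the 8 MG N and MG NP glands. *Dntt* and *Ccl28* were also under the minimum of 10 in every MG WT library. The same held for *Ccr9* in every tumor, and for *Rag1*, *Dntt* and *Ccr10* in every T NP tumor. Where tested in those comparisons, these genes had to differ.

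Lymph node stroma and T cell genes were read beside the segments because a gland sample can include its lymph node. The 7 stroma genes (most abundant *Glycam1*, of lymph node vessels) summed to 4967, 11713 and 9916 in MG WT, 3866, 318, 1519 and 6234 in MG N glands and 7689, 738, 14419 and 897 in MG NP. In tumors they summed to 139, 23.2, 966 and 39.7 in T N and 101, 1160.1, 447 and 186 in T NP. MG NP replicate 3, the gland led by *Ighv12-3*, was highest, MG N replicate 2 was the lowest gland, and T N replicate 3 and T NP replicate 2, the tumors with the most immunoglobulin reads of their groups, were also the highest tumors. The list had 1 gene called lower in MG N against MG WT and 0 of 7 called in MG NP against MG WT (limma, 0 at an unadjusted p under 0.05, edgeR 0, DESeq2 1 higher). The 10 T cell genes summed to 1259, 1797 and 1220.5 in MG WT, 1853, 1603, 1901 and 7114 in MG N, 8199, 594, 9939.8 and 783 in MG NP, 243, 134, 428 and 141 in T N and 87.5, 428, 344 and 228 in T NP, with 2 called higher in MG N against MG WT and 0 of 10 in MG NP against MG WT (limma, 0 at an unadjusted p under 0.05, edgeR 0, DESeq2 3 higher). Antibody receptor genes (8, most abundant *Fcgrt*, the receptor that recycles IgG) summed to 1299.9 to 2162 in MG WT, 7885 to 13931 in MG N, 5635 to 8845 in MG NP, 1608 to 4901 in T N and 2041 to 3247 in T NP. Macrophage genes (8, most abundant *Mrc1*) summed to 3263 to 4289.7, 20875 to 56446, 13736 to 21258, 8719 to 20053 and 9694 to 14853 in the same order. How much of the immunoglobulin level followed from lymph node tissue in a sample was not tested.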

How the data were processed

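RNA of 19 libraries was sequenced in 75-base read pairs. The labels give a stranded total RNA kit and the paper an mRNA kit, and which was used is not known. Per the submitters' processing notes, reads were aligned to mm10 with TopHat2 2.1.1 and Bowtie2, and the deposited values, a signal on the scale of reads per gene, came from DESeq2 normalization. Counting tool, annotation and strand setting were not given in the sources used here. Multiplied by 1 factor per library, all deposited values were whole reads (100% within 0.05), and the depths stand in the report.

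GENCODE vM21 held 97.97% of gene IDs (935 unmatched). The members and marker lists were chosen with earlier results of these data known. In R 4.3.3, groups were compared with limma 3.58.1 (trend) on log2(value + 1), and whole reads with edgeR 4.0.16 and DESeq2 1.42.0 on the deposited factors. In the order of the report, edgeR called 3780, 3523, 2431, 2573, 0 and 0 genes higher and 3341, 3031, 3809, 4452, 0 and 0 lower, and DESeq2 called 3827, 3879, 2545, 2670, 399 and 52 higher and 3331, 3128, 3960, 4567, 126 and 34 lower. DESeq2 gave no adjusted p for some genes. Single genes were also compared by exact permutation of log2 values. Only the 2 groups compared entered a fit, and the fits were tested on simulated data. The plan assumed normalized counts, and the test planned for them was kept for the signal.

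Named were the 13 constant genes, the 5 V segments per locus and 3 J or D segments per kind with most reads, the 3 largest called changes without overlap per comparison and direction, and the 3 V segments with the largest share of a library's heavy or kappa V reads. The 11 marker lists covered B cells, plasma cells, recombination, IgA homing, antibody receptors, T cells, lymph node stroma, luminal cells, adipocytes, muscle and macrophages. Some single marker genes are not reported here. The segments named beyond the rule were chosen after their values were seen. Alternatives were other pseudocounts, filters, scaling, tools and designs, libraries left out, and, for shares, other denominators or V segments.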

Additional observations from a re-analysis of the deposited data

Results flagged for a closer look

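In 152 groups of 4 libraries over 53 measures, the gap of the extreme library to its nearest neighbour was set against the whole range of the group (genes on the log2 scale, shares in percent). Chance gives about 1 in 20 groups, and 8 were found. MG NP replicate 1 was high for *Ighg2c* (0.861, 27799 against 671 to 1129 in the others), T N replicate 3 for *Ighm* (0.920, 7738 against 142 to 196) and *Ighv11-2* (0.836, 1513 against 0 to 2.33), T NP replicate 2 for *Iglv3* (1.0, 11 against 0), and MG N replicate 2 was low for *Ighv12-3* (0.929, 0 against 17.8 to 22.5). Among shares, MG NP replicate 3 was high for IgD (0.861, 2.65% against 0.104 to 0.458%), MG NP replicate 2 for IgA (0.856, 56.2% against 7.17 to 14.2%) and MG N replicate 1 for IgE (0.935, 2.47% against 0.0457 to 0.203%). The cause was not tested.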

How the results depend on the processing

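In tumors shares rest on few reads and many segments were not tested. An exact permutation p could not be lower than 0.0286 with 3 or 4 against 4 libraries. Tissue composition and strain were not separated from genotype, and bulk counts do not show which V segment was joined to which constant gene. Of log2 differences of constant genes under other settings, 648 kept direction and side of the threshold, 24 gained a call, 15 lost it and 16 turned sign. Among the 15 are genes to which DESeq2 gave no adjusted p, so that no test result was lost. These are *Ighg2b* in MG NP against MG WT, *Ighm* in T N against MG N, and *Ighg1*, *Ighg2b* and *Ighg2c* in T NP against MG NP. Of counts of called segments, 123 stayed within 1.5 times and 7 did not. Those counts are 44 (edgeR) and 66 (DESeq2) in place of 21 for MG N against MG WT, 128 in place of 73 for MG NP against MG WT with MG NP replicates 1 and 3 alone (chosen after seeing the data), and 3 (DESeq2) in place of 0 for MG NP against MG N. For T N against MG N they are 154 (no filter) and 139 (filter on the mean) in place of 54, and for T NP against MG NP 171 (no filter) in place of 108, where more segments were tested. Without 1 library the counts ran from 9 to 71, 27 to 87 and 52 to 108 for MG N against MG WT higher, MG NP against MG WT higher and T N against MG N lower, and T NP replicates 1 and 2 averaged changed no call of a constant gene. Without 1 library, 428 log2 differences were unchanged, 11 gained a call, 28 lost it and 23 turned sign. Of shares, 44 stayed within 1 SD and the MG NP lambda share moved (4.58% over V segments). The T N lambda share went from 5.17% to 2.27% over V segments, which is within its SD. The turned signs were: MG N against MG WT, *Ighd* (0.71 with edgeR and 0.71 with DESeq2), and MG NP against MG WT, *Ighd* (0.64 with edgeR, 0.63 with DESeq2 and 1.48 with replicates 1 and 3). For MG NP against MG N they were *Ighg2b* (-0.65 with both tools), *Ighg3* (-2.12 with both) and *Ighd* (1.53 with replicates 1 and 3), and for T NP against T N *Igkc* (-1.32 with both) and *Ighg3* (-0.15 with both). Ranges without 1 library that cross 0 were, in the same 4 comparisons, *Ighg3* -1.28 to 3.07, *Iglc2* -0.12 to 1.25 and *Ighd* -0.60 to 0.87, then *Ighd* -1.84 to 0.18, then *Ighg2c* -0.027 to 1.76, *Ighg2b* -0.77 to 1.23, *Ighg1* -0.40 to 1.79, *Ighg3* -1.60 to 2.76, *Ighe* -0.032 to 2.41, *Ighd* -1.79 to 0.23 and *Iglc3* -0.16 to 1.84, and then *Igkc* -0.60 to 2.01, *Ighg3* -0.57 to 1.76 and *Ighm* -0.78 to 1.18. The cause was not tested.

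Replicate numbers are shared by name only: deviations of libraries with the same number correlated at -0.28 to 0.32, and a library correlated best with its own number in 0 of 3, 0 of 3, 2 of 4, 0 of 4, 1 of 4 and 0 of 4 pairs in the order of the report. With a replicate block, in which replicate 4 of MG N and MG NP has no MG WT partner, counts of called segments stayed within 1.5 times, *Ighg3* (-1.28) and *Iglc2* (-0.12) turned sign in MG N against MG WT, with the same values as without MG N replicate 4, *Ighg1* there and *Ighd* in T NP against MG NP were no longer called, and *Ighg3* in T N against MG N was. The block changed no other call of a constant gene. Labels of T NP replicates 1 and 2 hold the same number, and whether these came from 1 mouse was not given. They were the closest pair of their group (r 0.9746, chi-square per degree of freedom 36.01).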

Other observations

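In the 4 tumors with the fewest immunoglobulin reads, T N replicates 1 and 2 and T NP replicates 1 and 4, *Ighm* stood at 160.2, 142, 136 and 261 normalized counts and *Igkc* at 75, 10.5, 76.2 and 145. T N replicate 2 held 10 *Igkc* reads and 4 heavy V reads.

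MG N replicate 2 held *Ighm* at 4308 with *Cd79a* at 11.5 and *Rag1* at 1825, and was the gland with the most *Rag2* (62.1) and *Dntt* (291). *Ccl28*, a chemokine for IgA plasma cells, stood highest in T NP replicate 2 at 528, against 72.9, 105 and 57.4 in the other T NP tumors. The cause of these values was not tested.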
